A study of Mus musculus with 43 samples.

Results

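The comparison set established induced pluripotent stem cells (iPSC) lacking Gatad2a beside the last days of the reprogramming course of the same Gatad2a-/- system, with 3 libraries of the 43 in the series. The iPSC library came from a line kept for at least 3 passages and harvested after 3 to 4 days in N2B27 medium with LIF and 2i, a pair of inhibitors of MEK and GSK3. The day 7 and day 8 libraries came from Gatad2a-/- secondary mouse embryonic fibroblasts (MEF) in which doxycycline had induced a cassette of the factors Oct4, Klf4, Sox2 and Myc. Induction took place in serum and LIF at 5% oxygen. Per the series' design text the medium was replaced on day 3.5 by one with serum replacement, LIF and 2i, whereas the growth protocol places 2i at 48 hours. All 3 libraries share the Gatad2a-/- genotype, the inducible cassette, and plating on irradiated human foreskin fibroblasts. Stage, time in culture, passage and medium differ together between the iPSC and the days and cannot be told apart. Genes were kept where at least 2 of the 3 libraries had an FPKM (fragments per kilobase of transcript, scaled to library size) of at least 1. A gene was counted as past the fold where log2(FPKM + 1) in iPSC lay at least 1 unit above both days or at least 1 unit below both.

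Gatad2a is a subunit of the nucleosome remodelling and deacetylase (NuRD) complex, which joins a chromatin remodeller with histone deacetylases and, in one of its forms, with Mbd3. Reprogramming of fibroblasts passes through loss of mesenchymal genes and gain of epithelial genes before the pluripotency network is fully active. In mouse cells kept in 2i and LIF this network is in its naive state and includes Nanog, Esrrb, Tfcp2l1 and Klf factors.

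Each stage was 1 library, and days 7 and 8 were successive times and not replicates, so no difference below has a replicate check or a p-value. The distance between days 7 and 8 is given as the nearest spread between libraries of the system. Over the 16421 genes kept, Pearson r of log2(FPKM + 1) across genes, which are not independent, was 0.886 between iPSC and day 7, 0.912 between iPSC and day 8, and 0.926 between day 8 and day 7. The absolute depth of the libraries is unknown. The steps of low FPKM values gave 1 read in day 7 a worth of 1.26 times that in iPSC and 1.32 times that in day 8, so day 7 was the shallowest library. All 37 mitochondrial genes in the table were listed at 0, so a listed 0 can be a failed estimate. RNA in a bulk sample cannot show whether fewer cells carry a transcript or each cell carries less of it. Gatad2a itself had 13.4 FPKM in iPSC, against 13.1 at day 7 and 14.7 at day 8. In iPSC of WT-2, the wild-type line isogenic to Gatad2a-/-, whose table was normalized separately, Gatad2a was listed at 38.5 FPKM. The sources used here do not say which stretch of Gatad2a was removed, and transcripts of an altered allele may be counted.

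Of the 16421 genes kept, 393 (2.39%) were higher in iPSC than on both days by the fold and 916 (5.58%) were lower, 1309 (7.97%) in all. The filter could take genes from the higher side only, since a gene lower by the fold has at least 1 FPKM on both days. With no filter 626 genes were higher and 916 lower, so part of the excess of lower genes came from the filter. Days 8 and 7 were themselves at least 1 log2 unit apart for 1490 genes (9.07%), with day 8 the higher for 828 (5.04%) and the lower for 662 (4.03%). Many of the low calls were not messenger RNA: among 1389 models of short RNAs and immune receptor segments, 299 (21.5%) were lower in iPSC, and 45.9% of these models were also 1 log2 unit apart between the 2 days. Over the 11673 protein-coding genes kept, 262 (2.24%) were higher in iPSC, 499 (4.27%) were lower, and 541 (4.63%) were 1 log2 unit apart between days 8 and 7. The median difference over all genes kept, iPSC minus the mean of the days, was 0.01 on the log2 scale. Upper quartile scaling, a check on library scaling, used factors of 1.005 for iPSC, 0.9849 for day 7 and 1.01 for day 8, and 386 of the 393 higher and 907 of the 916 lower genes were past the fold with it too. A difference of at least 2 log2 units beyond both days was reached by 35 higher and 258 lower genes. At the edge of the fold, Tcf15 was just inside on the higher side, with 6.07 FPKM in iPSC against 0.273 at day 7 and 2.53 at day 8. Nlrc3 lay just outside it, with 7.56 FPKM in iPSC against 3.28 and 2.92 on days 7 and 8. On the lower side Slc35g1 was just inside, with 5.24 FPKM in iPSC against 19.8 and 11.5, and Ctla2a just outside, with 3.08 FPKM in iPSC against 7.22 and 7.16.

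**Figure D1:**
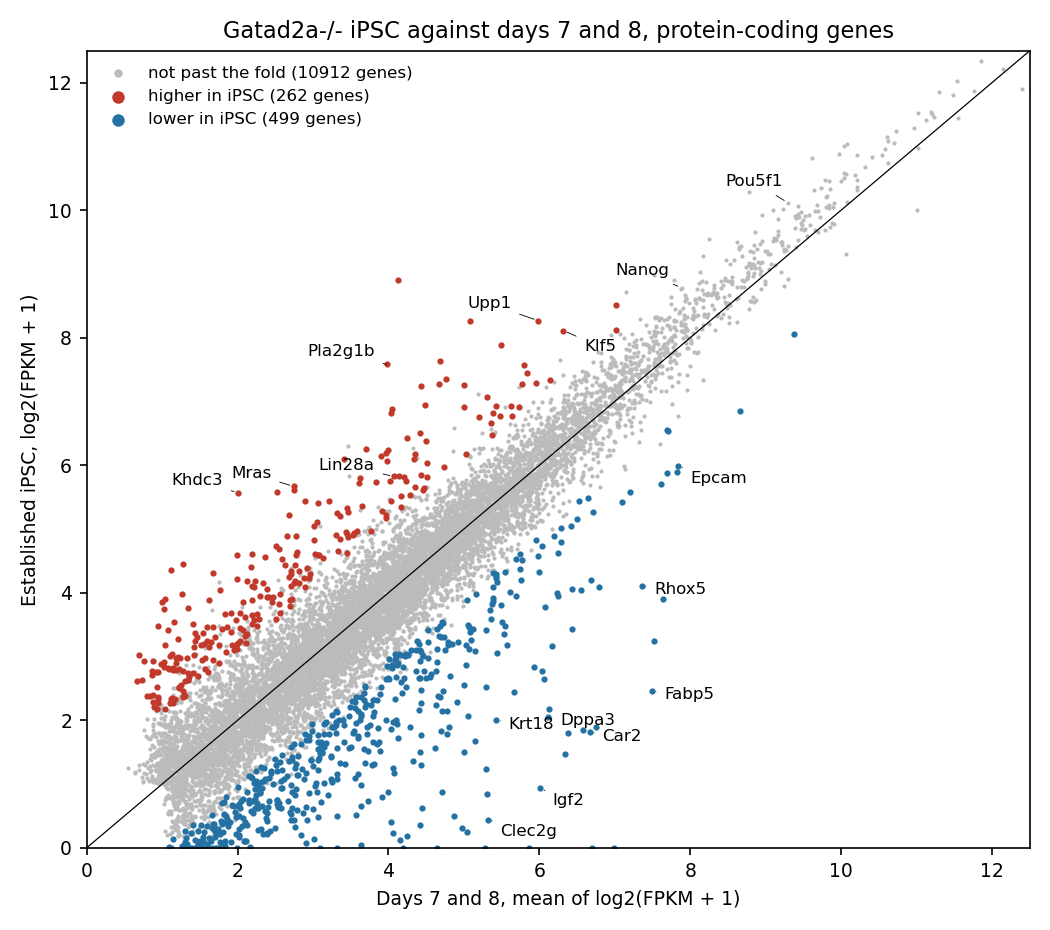
Levels of the 11673 protein-coding genes kept, with iPSC on the vertical axis and the mean of days 7 and 8 on the horizontal axis, both as log2(FPKM + 1), 1 point per gene. The 262 red points lie above both days by at least 1 log2 unit and the 499 blue points lie below both by at least as much; Pou5f1 and Nanog sit near the diagonal at the top, and Igf2, Clec2g, Car2 and Fabp5 lie far below it.

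The pluripotency network was already at high levels on days 7 and 8. Most of its factors were not past the fold, nor were most genes of any kind: 7.97% of all genes kept were past it. Nanog, the homeodomain factor of the naive state, had 439 FPKM in iPSC, against 210.0 at day 7 and 265 at day 8. Esrrb, an orphan nuclear receptor, had 135 FPKM in iPSC against 84.9 and 109 on days 7 and 8. In both cases iPSC was the highest of the 3 libraries and day 7 the lowest. Of the 14 naive pluripotency factors kept, iPSC lay above both days for 12, where over all genes kept it did so for 36.3%. It was past the fold above both for 2, beside 2.39% of all genes kept. Klf5, a Krüppel-like factor of the naive network, was one of these, with 276 FPKM in iPSC, against 55.9 at day 7 and 111 at day 8, a level 3.31 times the mean of the days. Tcl1, a co-activator of the kinase Akt, was the other, with 71.5 FPKM in iPSC against 30.4 and 33.1 on days 7 and 8. The median difference of the list was 0.47 on the log2 scale.

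Dppa3 was the 1 naive factor kept that lay below both days. Dppa3, also called Stella, encodes a maternal and germ cell protein that protects DNA methylation of the maternal genome in the zygote. The gene (ENSMUSG00000046323) lies on chromosome 6 of GRCm38 from 122626410 to 122630272, on the plus strand. It had 3.15 FPKM in iPSC, against 69.1 at day 7 and 67.1 at day 8, a mean of the days 21.6 times the level in iPSC. The days were close to each other and both far above the iPSC. In MEF Dppa3 had 0.356 FPKM and on day 6 32.1 FPKM, so that its highest level of the course was at day 7. In iPSC of WT-2 it was listed at 13.2 FPKM.

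Of the induced factors, 0 of the 4 were past the fold, beside 7.97% of all genes kept, which for so few genes is no result. Their FPKM can include reads of the transgenes. Pou5f1, which encodes Oct4, had 1109 FPKM in iPSC, against 462 at day 7 and 849 at day 8. Sox2 had 293 FPKM in iPSC against 165 and 256 on days 7 and 8. For both genes day 8 was nearer to iPSC than day 7 was. Klf4 had 40.2 FPKM in iPSC, between 30.1 at day 7 and 46.2 at day 8. Myc was the only one of the 4 below both days, with 3.78 FPKM in iPSC against 8.95 at day 7 and 5.64 at day 8.

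**Figure D2:**
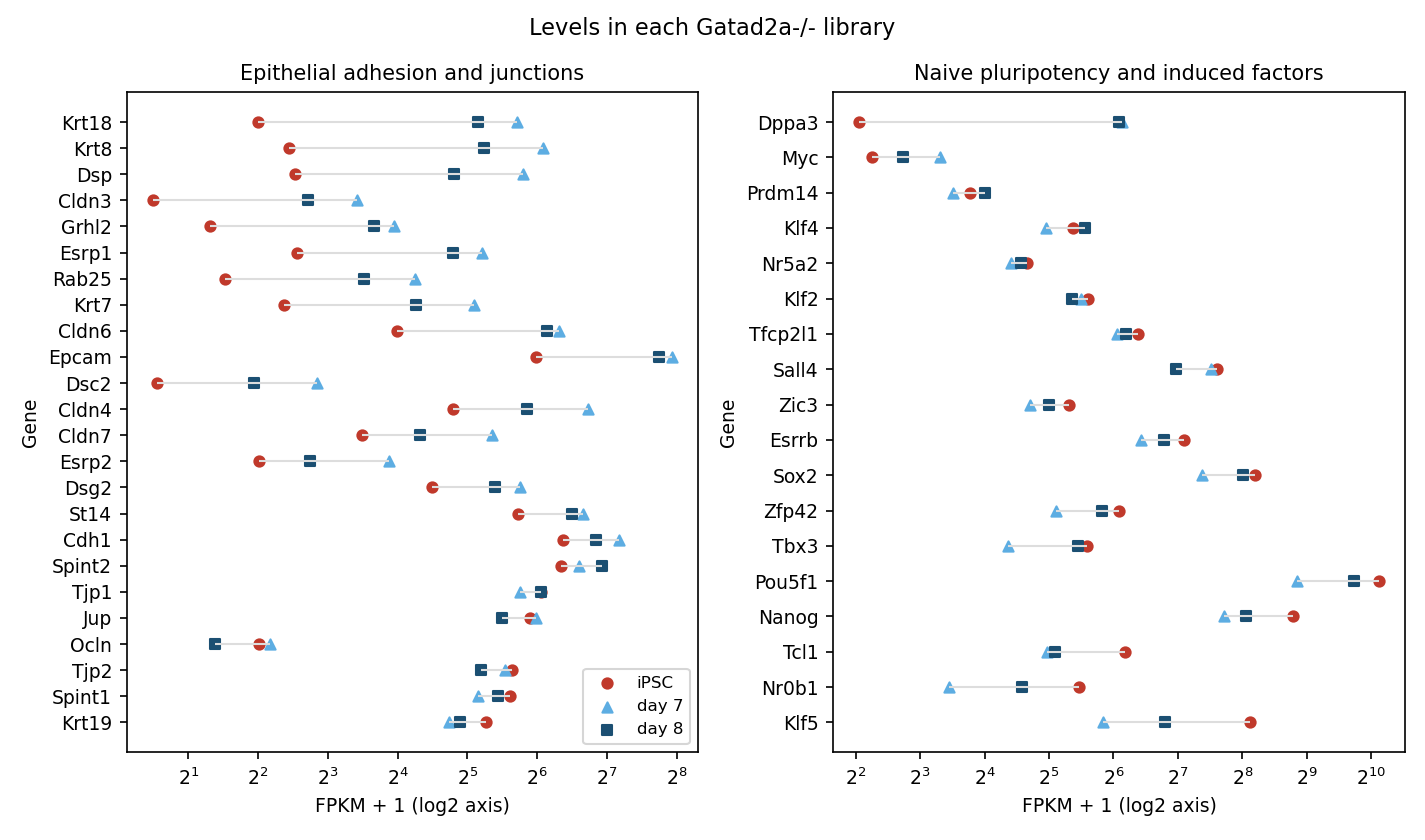
FPKM + 1 on a log2 axis in the iPSC (red circles), day 7 (light triangles) and day 8 (dark squares) libraries, with 1 row per gene, for the 24 epithelial adhesion and junction genes kept (left) and for the naive and induced factors (right). On the left the red circle is left of both days for 18 of the 24 genes, among them Krt18 at 2.99 FPKM and Cldn3 at 0.405 FPKM in iPSC; on the right Dppa3 stands apart and Klf5, Tcl1 and Nr0b1 are highest in iPSC.

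Among 24 other pluripotency-associated genes kept, 4 were higher in iPSC past the fold and 0 lower, beside 2.39% and 5.58% of all genes kept. The median of the list was 0.63. Khdc3, also called Filia, is a component of the subcortical complex of eggs that also guards genome stability in embryonic stem cells. It had the largest distance above both days of the genes named by the rule without a listed 0 in the 3 libraries. The gene (ENSMUSG00000092622) lies on chromosome 9 from 73101836 to 73104438, on the plus strand. It had 46.4 FPKM in iPSC, against 3.73 at day 7 and 2.42 at day 8, 15.1 times the mean of the days. It was listed at 0 in MEF and had 1.05 FPKM on day 6, so its high level was seen in the iPSC library alone of the 10 in the course. Upp1, uridine phosphorylase, had 307 FPKM in iPSC, against 29.4 at day 7 and 131 at day 8. Lin28a, which binds RNA and blocks maturation of let-7, had 55.6 FPKM in iPSC against 15.02 and 16.6. Dppa2, a chromatin factor of early embryos, had 64.6 FPKM in iPSC against 21.5 and 22.3. Upp1 differed more between the days than between iPSC and day 8, whereas Lin28a and Dppa2 were near level between the days.

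Of 15 listed genes of the Nodal pathway and of the primed epiblast, 7 were kept. Among these 4 were higher in iPSC and 0 lower, beside 2.39% and 5.58% of all genes kept, with a list median of 1.26. Lefty2, a secreted antagonist of Nodal, had 134 FPKM in iPSC, against 55.03 at day 7 and 26.97 at day 8. Its neighbour and near copy Lefty1 had 17.3 FPKM in iPSC against 4.41 and 2.503; reads shared between the pair make both values uncertain. Eomes, a T-box factor, had 8.06 FPKM in iPSC against 3.11 and 2.48. In these 3 genes the day 8 level was below that of day 7, so the step to iPSC was opposite in sign to the step from day 7 to day 8.

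Signalling readouts differed in both directions. Of 17 MEK-ERK feedback and target genes kept, 3 were higher in iPSC and 2 lower, beside 2.39% and 5.58% of all genes kept. Their median was 0.24. Etv4, an ETS factor downstream of FGF, had 24.8 FPKM in iPSC, against 5.77 at day 7 and 4.09 at day 8. Spry4, a feedback inhibitor, had 9.34 FPKM in iPSC against 2.05 and 1.795, and Etv1 had 7.88 FPKM against 1.86 and 2.32. By contrast Fos, an immediate early gene, had 1.31 FPKM in iPSC against 4.802 and 4.68, and the phosphatase gene Dusp5 had 2.24 FPKM against 7.33 and 5.76. Of 8 WNT target genes kept, with a median of 1.00, 2 were higher, beside 2.39% of all genes kept. Bmp4, a secreted signal that is also on that list, had 14.8 FPKM in iPSC, against 1.33 at day 7 and 1.46 at day 8, 10.6 times the mean of the days. MEF had 24.7 FPKM of Bmp4, so its days were a low between fibroblast and iPSC. Notum, a WNT deacylase, had 8.11 FPKM in iPSC against 1.76 and 3.08.

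The other genes with the largest distances above both days had mixed roles. Pla2g1b, a secreted phospholipase, had 191 FPKM in iPSC, against 11.8 at day 7 and 18.4 at day 8. Stra8, which answers to retinoic acid and gates meiosis, had 20.9 FPKM in iPSC against 0.856 and 2.14. Mras, a RAS-like GTPase, had 49.8 FPKM in iPSC against 4.57 and 7.06. Mras had 32.9 FPKM in MEF and 63.1 FPKM on day 3, so its low levels on days 7 and 8 followed high ones, while Pla2g1b and Stra8 had their highest level of the course in iPSC. Abcg2, an efflux transporter of the plasma membrane, was likewise high in MEF, with 41.3 FPKM in iPSC, 7.45 at day 7, 7.33 at day 8 and 76.8 in MEF. The remaining 10 of the 15 largest were Accsl, Krt42, Mcf2, Pou2f3, Ggt1, Bbs2, Pnma2, Padi4 and Ak7 beside Bmp4, described above, and between 9.69 FPKM (Pnma2) and 46.8 FPKM (Krt42) in iPSC. On the days these 10 had between 0.386 FPKM (Mcf2 at day 7) and 6.83 FPKM (Krt42 at day 8).

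**Figure D3:**
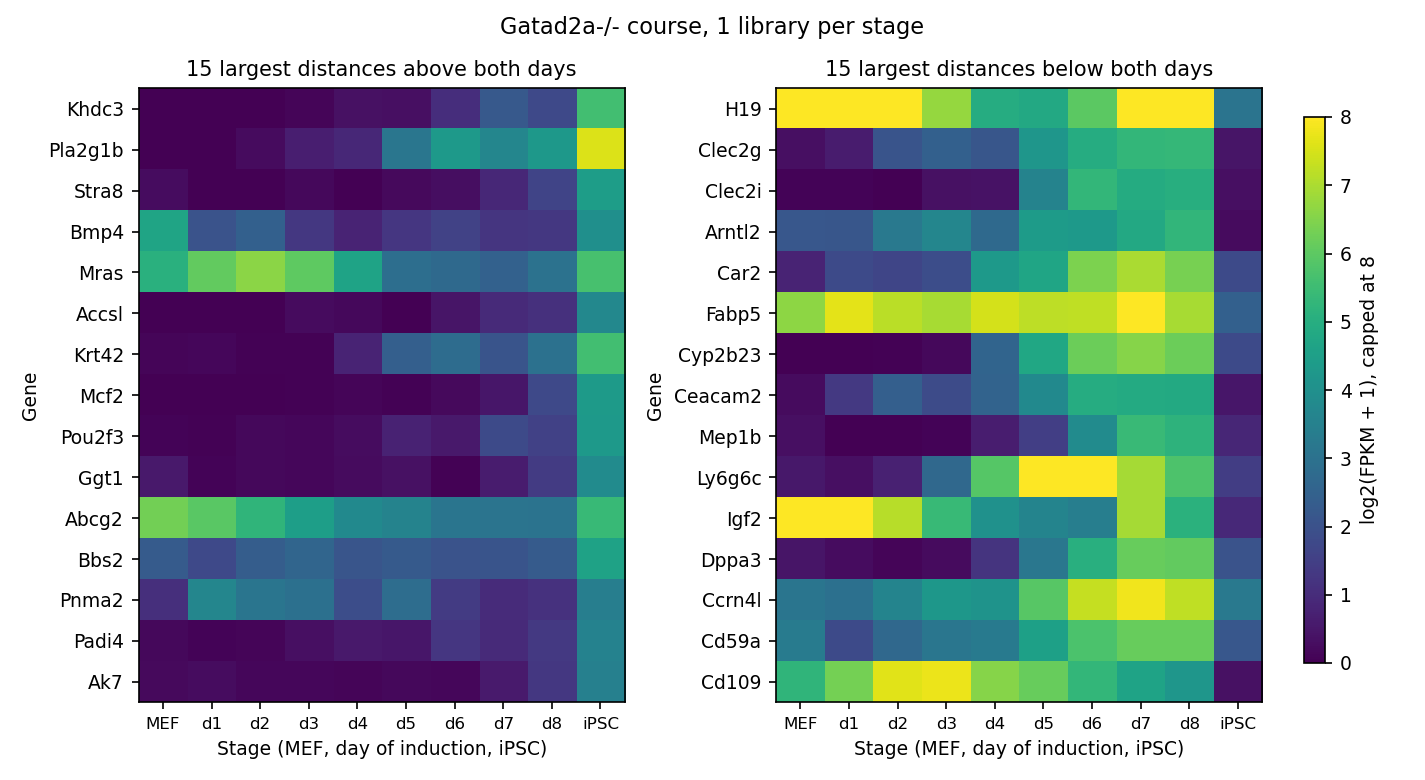
Colour map of log2(FPKM + 1), capped at 8, along the 10 libraries of the Gatad2a-/- course in time order from MEF through days 1 to 8 to iPSC, with 1 row per gene, for the 15 named genes with the largest distances above both days (left) and below both (right). On the left Mras, Abcg2 and Bmp4 are bright at both ends, and most others are bright in iPSC alone; on the right most genes brighten between days 4 and 7 and are dark in iPSC, whereas H19 and Igf2 are bright in MEF, dim on days 4 to 6 and bright again on day 7.

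Many epithelial genes were lower in iPSC. Of the 24 epithelial adhesion and junction genes kept, 12 were lower past the fold and 0 higher, with a median of -1.42, beside 5.58% lower among all genes kept. Their summed level, over all 25 listed, was 639 FPKM in iPSC, against 1387 at day 7 and 1122 at day 8, and 239.6 FPKM in MEF. Krt18, a keratin of simple epithelia, had 2.99 FPKM in iPSC, against 51.4 at day 7 and 34.4 at day 8. Its partner Krt8 had 4.43 FPKM in iPSC against 66.5 and 36.8. Krt7 had 4.15 FPKM in iPSC against 33.1 and 18.3. All 3 keratins were higher at day 7 than at day 8 and lowest of the 3 libraries in iPSC. Among junction genes, Cldn6, a claudin, had 14.9 FPKM in iPSC, against 78.6 at day 7 and 69.7 at day 8. Dsp, the desmoplakin of desmosomes, had 4.76 FPKM in iPSC against 54.3 and 26.9, and Cldn3 had 0.405 FPKM against 9.64 and 5.57. Grhl2, a transcription factor of epithelial genes, had 1.49 FPKM in iPSC against 14.5 and 11.7, and Esrp1, an epithelial splicing factor, had 4.89 FPKM against 36.1 and 26.7. Epcam and Cdh1, adhesion molecules that pluripotent cells also carry, stayed at high levels in iPSC. Epcam had 62.4 FPKM there, against 243 at day 7 and 214 at day 8, and Cdh1, which was not past the fold, had 81.3 FPKM against 143 and 114.

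Krt7, Krt8 and Krt18 are consecutive among the protein-coding genes kept on chromosome 15, between positions 101411043 and 102032027 of GRCm38. Their promoters are shown because the 3 genes were lower together and because Tfap2c, a member of the AP-2 family of transcription factors, was lower too, with 14.4 FPKM in iPSC, against 105 at day 7 and 53.9 at day 8. The sequences are those of RefSeq on GRCm38.p6, from 250 bases before to 50 after the RefSeq start of each gene. They lie at chr15:101412153-101412452 on the plus strand (Krt7), chr15:102004293-102004592 on the minus strand (Krt8) and chr15:102027966-102028265 on the plus strand (Krt18). The GENCODE start of Krt7, at 101411043, lies before its window, so that window is inside the gene by the GENCODE positions. Capitals mark matches to the AP-2 motif GCCNNNGGC, which reads the same on both strands. It was counted once at each position, with overlapping matches allowed.
Krt7: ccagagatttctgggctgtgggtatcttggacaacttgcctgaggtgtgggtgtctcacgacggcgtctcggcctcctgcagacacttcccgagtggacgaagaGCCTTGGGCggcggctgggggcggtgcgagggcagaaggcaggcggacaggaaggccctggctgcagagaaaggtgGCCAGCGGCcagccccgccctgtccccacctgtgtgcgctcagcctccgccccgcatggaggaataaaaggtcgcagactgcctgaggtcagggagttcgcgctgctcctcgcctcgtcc
Krt8: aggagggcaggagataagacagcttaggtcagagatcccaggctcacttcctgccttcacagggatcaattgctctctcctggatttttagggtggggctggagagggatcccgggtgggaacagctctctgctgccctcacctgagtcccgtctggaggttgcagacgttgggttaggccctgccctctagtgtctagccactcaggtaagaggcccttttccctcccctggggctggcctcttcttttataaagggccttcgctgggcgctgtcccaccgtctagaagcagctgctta
Krt18: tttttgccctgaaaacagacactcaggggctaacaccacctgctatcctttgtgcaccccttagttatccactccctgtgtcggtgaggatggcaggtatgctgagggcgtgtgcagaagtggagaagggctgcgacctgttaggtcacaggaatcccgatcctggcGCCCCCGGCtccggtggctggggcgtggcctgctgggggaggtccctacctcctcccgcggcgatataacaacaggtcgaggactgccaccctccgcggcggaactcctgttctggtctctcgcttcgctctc
The motif occurred 2 times in the Krt7 promoter, 0 times in that of Krt8 and 1 time in that of Krt18. Of 32851 mouse promoters of the same length, 5450 (16.6%) hold at least 1 match. A match describes letters in this window and is not a site of binding. AP-2 was the only motif sought and was picked with the levels of these genes known. Whether Tfap2c bears on the 3 keratin genes was not tested.

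Genes of neighbouring epithelial and placental programmes were lower as well. Of 11 keratinocyte genes kept, 6 were lower in iPSC and 0 higher, beside 5.58% and 2.39% of all genes kept. Their median was -1.43. The 20 listed summed to 63.0 FPKM in iPSC, against 348 at day 7, 190.4 at day 8 and 117 in MEF. Perp, a desmosome protein induced by p53, had 16.1 FPKM in iPSC, against 123 at day 7 and 97.3 at day 8. Krtdap, a keratinocyte differentiation gene, was listed at 0 in iPSC and had 71.9 FPKM at day 7 and 19.7 at day 8. Of the genes that define stratified skin, Krt5 and Trp63 were not kept, with 0.323 and 0.0439 FPKM in iPSC, 1.02 and 0.492 at day 7 and 0.577 and 0.191 at day 8. Krt14 was kept and not past the fold, with 1.49 FPKM in iPSC against 3.18 and 3.33 on days 7 and 8. Of 12 trophoblast markers kept, 4 were lower and 1, Eomes, was higher, beside 5.58% and 2.39% of all genes kept. The median of these markers was -0.84. Plac1, a placental protein, had 0.101 FPKM in iPSC against 9.48 and 5.22 on days 7 and 8, and Gata2 had 0.644 FPKM against 17.2 and 3.07.

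Lectin-like receptors and metabolic enzymes were among the 15 genes with the largest distances below both days. Clec2g, a C-type lectin-like membrane protein, had 0.3598 FPKM in iPSC, against 38.4 at day 7 and 39.4 at day 8. Clec2i had 0.246 FPKM in iPSC against 29.1 and 31.6. Clec2f, annotated as a transcribed pseudogene and not one of the 15, was listed at 0 in iPSC, with 93.4 and 61.3 FPKM on the days. These relatives lie close together on chromosome 6 and can share reads. Cyp2b23, a cytochrome P450, had 2.49 FPKM in iPSC against 92.6 and 73.4, and it too has near copies beside it on chromosome 7. Car2, carbonic anhydrase 2, had 2.51 FPKM in iPSC, against 125 at day 7 and 81.8 at day 8, while Fabp5, a fatty acid binding protein, had 4.49 FPKM against 258 and 124. Arntl2, a partner of Clock, had 0.189 FPKM in iPSC against 27.2 and 37.4. Ccrn4l, a gene under circadian control now named Nocturnin, had 8.48 FPKM in iPSC against 225 and 148. MEF levels of Clec2g (0.256 FPKM), Cyp2b23 (0.00445 FPKM) and Car2 (0.7305 FPKM) were low as well, so these 3 were high in the middle and late course and low at both ends. Ly6g6c had its highest level of the course on day 5, at 613 FPKM, with 1.76 FPKM in iPSC against 119.5 at day 7 and 53.8 at day 8.

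Imprinted genes included H19, which had the largest distance below both days of the named genes without a listed 0 in the 3 libraries. Some named genes listed at 0 in iPSC lay further below, among them Clec2f and the short RNA models H19_1 and H19_2. These models lie within the H19 interval and had 1624 and 5234 FPKM at day 7. Of 19 imprinted genes kept, 6 were lower in iPSC past the fold and 1 higher, beside 5.58% and 2.39% of all genes kept. The median of the list was -0.20. H19, a long non-coding RNA expressed from the maternal allele, had 7.38 FPKM in iPSC, against 964 at day 7 and 328 at day 8, a mean of the days 87.5 times the level in iPSC. Igf2, the growth factor gene paired with H19 and expressed from the paternal allele, had 0.906 FPKM in iPSC against 121 and 33.2. Both are on chromosome 7 of GRCm38, H19 at 142575529 to 142578143 and Igf2 at 142650766 to 142666816, on the minus strand. Their course was not steady: H19 had 2552 FPKM in MEF, 27.1 on day 5, 61.7 on day 6 and 964 on day 7, and Igf2 had 1192 FPKM in MEF and 9.79 on day 6. Day 7 thus stood above the days on either side for both. Peg10, a paternally expressed gene of the placenta, had 7.94 FPKM in iPSC against 109.8 and 46.1, with 5.63 FPKM on day 6. Cdkn1c, the cell cycle inhibitor p57, had 1.96 FPKM in iPSC against 25.1 and 22.2, with 3.49 FPKM on day 6. For H19, Igf2, Peg10 and Cdkn1c the difference from iPSC was therefore much smaller on day 6 than on days 7 and 8. Peg3, a zinc-finger gene, did not share this, with 15.5 FPKM in iPSC, 93.4 at day 7, 92.8 at day 8 and 114 on day 6. Zdbf2 was higher in iPSC, with 9.39 FPKM against 2.15 and 3.49.

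Germline genes also split. Of the 25 listed, 13 were kept. Of these, 5 were lower in iPSC and 1, Sohlh2, was higher, beside 5.58% and 2.39% of all genes kept. The Rhox genes are a cluster of homeobox genes of the X chromosome active in the reproductive tract and placenta. Rhox5 had 16.3 FPKM in iPSC, against 175 at day 7 and 151 at day 8. Rhox5, Rhox6 and Rhox9 follow each other between positions 37804842 and 37901770 of that chromosome. Rhox6 had 2.73 FPKM in iPSC against 245 and 45.8, and Rhox9 had 2.59 FPKM against 232 and 38.5. Rhox6 and Rhox9 are near copies and their split of reads is uncertain; for both, day 7 was several times above day 8, which had about the level of day 6, 60.7 FPKM for Rhox6 and 39.3 FPKM for Rhox9. Tex19.1, a gene that restrains transposons in germ cells, had 5.36 FPKM in iPSC against 24.7 and 18.8. Sohlh2, a germ cell transcription factor, had 13.8 FPKM in iPSC against 0.562 and 5.11. Dazl, not past the fold, had 2.59 FPKM in iPSC, between 1.24 at day 7 and 10.7 at day 8. Of the 13 DNA methylation genes kept, 0 were past the fold, beside 7.97% of all genes kept, which for so few genes is no result about the list. Dnmt3l, the cofactor of the de novo methyltransferases, came nearest, with 137 FPKM in iPSC, against 17.5 at day 7 and 71.3 at day 8.

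Of 25 cell cycle inhibitors, D cyclins and p53 response genes kept, 9 were lower in iPSC past the fold and 0 higher. Over all genes kept, 5.58% were lower and 2.39% higher. The median of the list was -0.68. Cdkn2a, the locus of p16 and Arf, had 3.41 FPKM in iPSC, against 30.7 at day 7 and 20.7 at day 8. Ccnd2, a D-type cyclin, had 0.351 FPKM in iPSC against 8.28 and 3.61, and Plk2, a p53 target kinase, had 5.51 FPKM against 23.9 and 30.9. The 36 cell cycle genes kept had a median of 0.20 and 0 past the fold, beside 7.97% of all genes kept. In a list of this size a count of 0 is not far from that share and was not read as a result. Fibroblast and matrix genes were low throughout: their summed level was 801.5 FPKM in iPSC, 792 at day 7 and 838 at day 8, against 15215 FPKM in MEF. Of the 27 kept, 5 were lower in iPSC and 1 higher, beside 5.58% and 2.39% of all genes kept. The 5 included Bgn, a matrix proteoglycan, with 1.95 FPKM in iPSC against 8.65 and 11.9, and Dcn with 1.43 FPKM against 5.64 and 8.58. Vim, an intermediate filament gene, was the 1 member higher, with 160.2 FPKM in iPSC against 78.9 and 61.2, and it missed the fold under upper quartile scaling. The feeder layer of human fibroblasts was shared by all 3 libraries, and its part in these levels was not tested. Of 13 macrophage and blood markers in the table, 2 were kept, Cd68 and Laptm5, and 0 were past the fold, with a summed level of 101.4 FPKM in iPSC, against 47.8 at day 7 and 81.8 at day 8. The defining markers Lyz2, Tyrobp and Ptprc were listed at 0 in iPSC and each was below 1 FPKM on both days.

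Metabolic genes differed by smaller steps that mostly had one direction. Of 23 genes of cholesterol synthesis and uptake kept, iPSC lay above both days for 22, beside 36.3% of all genes kept. It was past the fold above both for 4, beside 2.39% of all, with 0 lower and a median of 0.87. Sqle, squalene epoxidase, had 49.4 FPKM in iPSC, against 20.5 at day 7 and 18.5 at day 8. Sc4mol, a sterol methyl oxidase now named Msmo1, had 112 FPKM in iPSC against 43.9 and 38.2, Pmvk had 56.5 FPKM against 21.8 and 19.5, and Insig1, which holds back the sterol sensor, had 44.7 FPKM against 17.96 and 16.03. Of 24 glycolysis genes kept, iPSC lay above both days for 20, with a median of 0.50. It was past the fold for 2, Hk2 and Pfkfb3, beside 2.39% of all genes kept, a count too small to read as a result. Hk2, a hexokinase, had 120.3 FPKM in iPSC against 44.1 and 52.9, and Ldha, not past the fold, had 694 FPKM against 356 and 464. Ribosome biogenesis (32 kept), cytosolic ribosomal proteins (38), oxidative phosphorylation (31), one-carbon enzymes (19) and the amino acid response (21) had medians of 0.39, 0.25, 0.24, 0.36 and 0.29. Each had 0 genes past the fold, beside 7.97% of all genes kept, and in lists of this size such a count was not read as a result.

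Of the 14 NuRD subunits kept, 0 were past the fold, beside 7.97% of all genes kept, and the median difference was -0.06. With so few genes a count of 0 is near that share and is no result about the complex. Mbd3 had 81.3 FPKM in iPSC, against 68.2 at day 7 and 67.4 at day 8. Gatad2b, the paralog of Gatad2a, had 26.6 FPKM in iPSC against 34.2 and 34.5, and Hdac1, a deacetylase, had 349 FPKM against 234 and 208. Of the 20 Polycomb subunits kept, 1 was past the fold, beside 7.97% of all genes kept, which is no result about the list. It was Kdm2b, which brings Polycomb to CpG islands, with 190.2 FPKM in iPSC, against 46.8 at day 7 and 63.5 at day 8. Ezh2 and Suz12, core subunits, were not past the fold, with 290.1 and 90.3 FPKM in iPSC, 253 and 90.9 at day 7, and 137 and 124 at day 8.

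**Figure D4:**
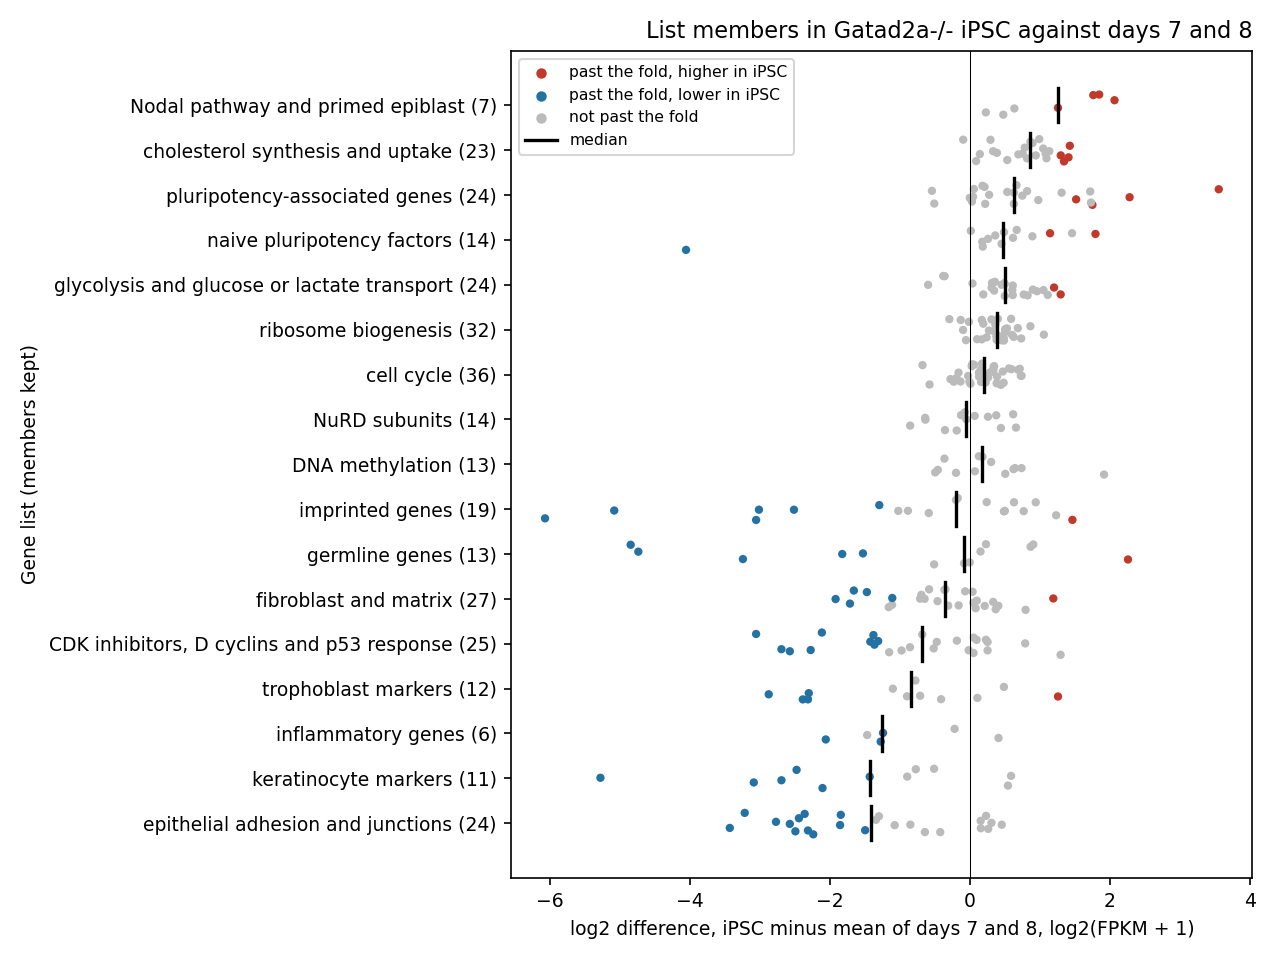
Differences on the log2(FPKM + 1) scale, iPSC minus the mean of days 7 and 8, with 1 point per gene kept and 1 row per gene list, a black bar at each list's median, and the number of members kept in brackets. Medians run from 1.26 (Nodal pathway and primed epiblast) to -1.43 (keratinocyte markers), and the imprinted and germline lists have medians near 0 with tails far to the left.

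MEF and the earlier days were set beside the protein-coding genes past the fold as a description, since the genes had been chosen on their iPSC, day 7 and day 8 values. Of the 262 higher in iPSC, which the choice already placed above days 7 and 8, 186 (71%) were also above MEF and days 1 to 6, and 15.3% of all protein-coding genes kept were highest in iPSC. As for Mras, MEF lay at least 1 log2 unit above the mean of the days for 65 (24.8%) of the 262. Among all protein-coding genes kept it did so for 14.4%, and the days' levels were part of the choice. Of the 499 lower in iPSC, MEF lay at least 1 log2 unit below the mean of the days for 249 (49.9%), beside 22.6% of all protein-coding genes kept, with the days' levels part of the choice. Another 97 (19.4%) had MEF at least 1 log2 unit above the mean of the days, as for Igf2, beside 14.4% of all. Cd109, a membrane protein, had 0.283 FPKM in iPSC, against 23.8 at day 7 and 17.4 at day 8, and was highest on day 3, at 215 FPKM.

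The same contrast was read in the Mbd3f/- system, whose genotype pairs a floxed with a null allele of Mbd3, another NuRD subunit, and which has its own iPSC, day 7 and day 8 libraries. There 364 of 13213 genes kept (2.75%) were higher in iPSC by the same fold and 469 (3.55%) were lower, while day 8 lay at least 1 log2 unit above day 7 for 1.38% of genes and below it for 0.78%. Of 12523 genes kept in both tables, 263 were higher in Gatad2a-/- iPSC and 311 in Mbd3f/- iPSC, and 73 were in both lists, 27.8% of the Gatad2a-/- list and 23.5% of the Mbd3f/- list, beside 2.48% of all genes higher in Mbd3f/-. Lower in both were 155 genes, 33.5% of 463 in Gatad2a-/- and 37.5% of 413 in Mbd3f/-, beside 3.3% of all. Of the 263 genes higher in Gatad2a-/- iPSC, 1 (0.38%) was lower in Mbd3f/- iPSC, beside 3.3% of all. Of the 463 lower in Gatad2a-/- iPSC, 9 (1.94%) were higher in Mbd3f/- iPSC, beside 2.48% of all. No library is shared between the 2 contrasts, but medium and stage change together in both.

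Genes shared by the systems included Dppa3, with 2.21 FPKM in Mbd3f/- iPSC, against 46.5 at day 7 and 47.9 at day 8. Clec2i had 0.425 FPKM in Mbd3f/- iPSC against 41.4 and 39.99, and Cyp2b23 had 7.19 FPKM against 70.8 and 66.2. On the higher side, Stra8 had 20.6 FPKM in Mbd3f/- iPSC against 0.5201 and 1.59, Mras had 57.7 FPKM against 2.23 and 6.82, and Etv4 had 32.3 FPKM against 1.204 and 0.462. Of the epithelial list, 10 of 23 kept were lower in Mbd3f/- iPSC and 0 higher, beside 3.3% and 2.48% of genes kept in both tables. The median of the list was -0.64. Krt18 had 5.16 FPKM in Mbd3f/- iPSC, against 20.02 at day 7 and 21.1 at day 8, and Epcam had 15.3 FPKM against 112 and 81.8. These genes were lower than both days in each system.

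Other differences were not seen in Mbd3f/-, where whether the systems differ has 1 value each and was not tested. H19 had 51.99 FPKM in Mbd3f/- iPSC, against 35.3 at day 7 and 61.5 at day 8, and so did not repeat the difference of Gatad2a-/-. Igf2 had 42.6 FPKM in Mbd3f/- iPSC against 8.03 and 10.5, higher and not lower. Rhox6 had 7.12 FPKM in Mbd3f/- iPSC against 6.47 and 8.98, whereas Gatad2a-/- day 7 had 245 FPKM. Arntl2 had 3.05 FPKM against 2.12 and 2.04. Unlike Clec2i, its relatives Clec2g and Clec2f were not kept in Mbd3f/-. On its days 7 and 8 Clec2g had 0.386 and 0.156 FPKM, and Clec2f had 1.65 and 0.767 FPKM. Khdc3 had 4.41 FPKM in Mbd3f/- iPSC against 3.64 and 6.196, and Lin28a had 8.24 FPKM against 8.49 and 12.7. Of 24 glycolysis genes, 7 were lower in Mbd3f/- iPSC and 0 higher, beside 3.3% and 2.48% of genes kept in both tables. Their median was -0.69, where the Gatad2a-/- median was 0.50. Of 23 cell cycle inhibitor and p53 response genes kept in both, 1 was lower and 2 were higher, with a median of 0.22. Beside the same shares, these counts are too small to read as a result.

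**Figure D5:**
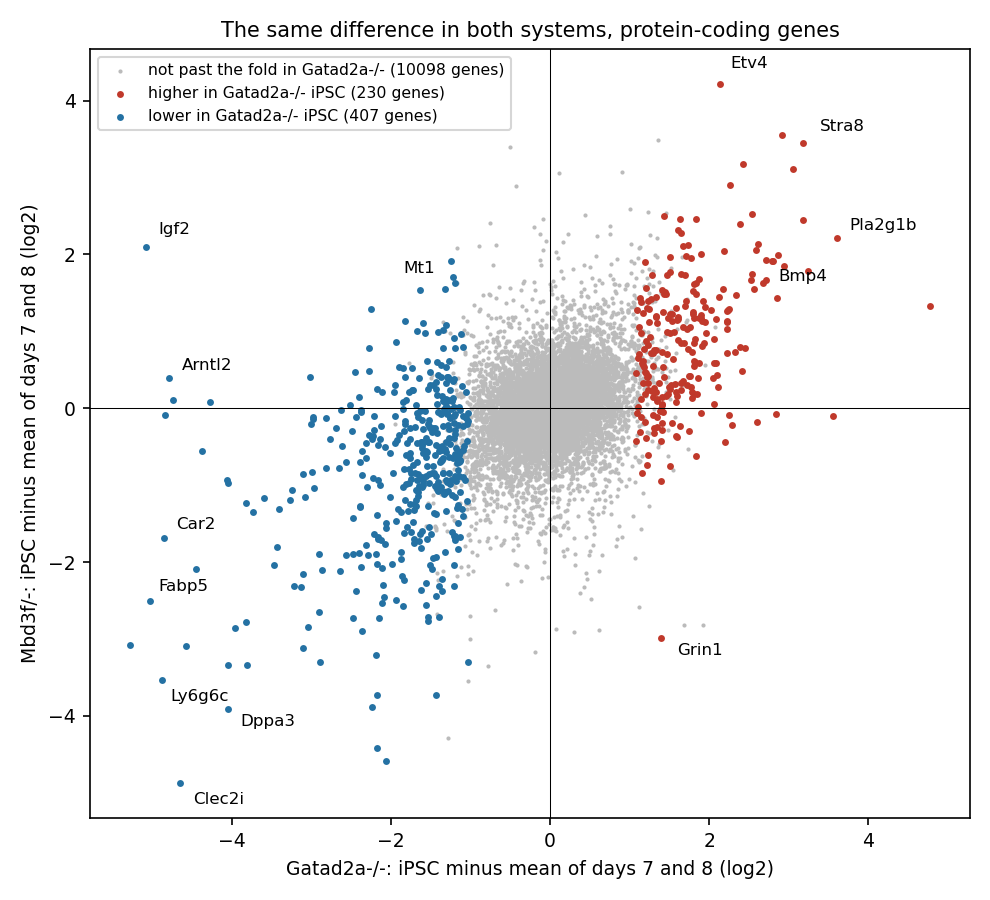
Difference on the log2(FPKM + 1) scale, iPSC minus the mean of days 7 and 8, in Gatad2a-/- on the horizontal axis and in Mbd3f/- on the vertical axis, 1 point per protein-coding gene kept in both tables. Of the 230 genes higher in Gatad2a-/- iPSC (red), 194 lie above 0 in Mbd3f/-, and of the 407 lower ones (blue), 328 lie below 0; Igf2 at -5.08 and 2.10 and Grin1 at 1.39 and -2.98 lie in the opposite corners.

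Other established lines gave levels from separately normalized tables, set side by side and not tested. The genes had been chosen on the same Gatad2a-/- iPSC and day values from which nearness was measured. No share over all genes kept was computed, so the shares below have no background and do not measure likeness between lines. Of the protein-coding genes lower in Gatad2a-/- iPSC, 439 (88.2%) had a WT-2 iPSC level nearer to the Gatad2a-/- iPSC than to the mean of its days. The number was 419 (84.1%) for iPSC of WT-1, the other wild-type line, and 360 (72.3%) for iPSC of Mbd3f/-. Of the protein-coding genes higher in Gatad2a-/- iPSC it was 164 (62.6%) for WT-2 iPSC, 140 (53.4%) for WT-1 iPSC and 140 (53.4%) for Mbd3f/- iPSC. Over all 393 higher genes, models of short RNAs included, these shares were below an even split, at 44.5% for WT-2, 38.4% for WT-1 and 39.2% for Mbd3f/-. For the lower genes of all types they were 92.2%, 90.4% and 83.4% in the same order of lines. Khdc3 had 40.3 FPKM in WT-2 iPSC and Pla2g1b 99.6 FPKM, both nearer to the Gatad2a-/- iPSC, whereas Kdm2b had 36.8 FPKM in WT-2 iPSC, below the 46.8 FPKM of Gatad2a-/- day 7. Klf5 had 82.1 FPKM in WT-2 iPSC, between its 2 days in Gatad2a-/- and far below the 276 FPKM of the Gatad2a-/- iPSC.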

How the data were processed

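Poly(A) RNA was measured with 1 library per stage. The authors deposited 1 table of FPKM per gene for each cell system; per the submitters' processing notes the tools were CASAVA 1.8.2, TopHat2 2.0.10 and Cufflinks 2.2.1, on mm10. Neither the gene annotation used nor the strand setting is stated in the sources at hand. Per the labels' protocols libraries were made with a TruSeq kit, which does not mark strand, so genes that overlap, lie antisense or have near copies have uncertain values. The value columns without a matching sample numbered 0, and the table of Myc perturbations was not used.

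From the 39012 rows of the Gatad2a-/- table, 41 with duplicated identifiers were left out, and 27 symbols that had become dates were identified by Ensembl identifier. Values were taken as log2(FPKM + 1), which understates the difference of genes with low levels, with no scaling between libraries. Genes with FPKM of at least 1 in at least 2 of the 3 libraries were kept, so a gene high in 1 library alone was left out. No test was possible with 1 library per stage. Whole reads could not be recovered, and relative depth came from the steps of FPKM values up to 0.3. Because the 10 highest genes of each library took 73.1% of summed FPKM in iPSC, 81.3% in day 7 and 82.5% in day 8, sums over all genes were not compared.

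Python 3.11.15 was used with numpy 2.4.6, pandas 2.3.3, scipy 1.17.1 and matplotlib 3.10.9; gene types and positions came from GENCODE M21 on GRCm38. The counting was checked on simulated data. The contrast, the 42 gene lists and the markers were chosen with earlier results of these data known. Named genes were Gatad2a, Mbd3, the 4 induced factors, the 15 with the largest distances beyond both days each way (past the fold in both scalings, at least 5 FPKM where higher, no listed 0, no predicted genes or small RNAs), up to 4 members past the fold per list, up to 6 genes opposite in Mbd3f/-, and genes listed at 0. Of the pluripotency, fibroblast and NuRD lists members not past the fold were named too. Others, such as Dnmt3l, Cdh1, Ldha, Ezh2, Suz12, Dazl and the zinc-finger genes, were named after their values were seen.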

Additional observations from a re-analysis of the deposited data

Results flagged for a closer look

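In 5 genes the iPSC lay past the fold in opposite directions in the Gatad2a-/- and Mbd3f/- systems, by the filters for named genes. With 1 value per system, these differences between systems were not tested. Before these filters, opposite calls were no more frequent than the share over all genes kept in both tables. Of genes higher in Gatad2a-/- iPSC 0.38% were lower in Mbd3f/- iPSC, beside 3.3% of all. Of those lower in Gatad2a-/- iPSC 1.94% were higher there, beside 2.48% of all. Differences are on the log2(FPKM + 1) scale, iPSC minus the mean of days 7 and 8.

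Igf2 differed by -5.08 in Gatad2a-/- and by 2.10 in Mbd3f/-. It had 0.906 FPKM in Gatad2a-/- iPSC, against 121 at day 7 and 33.2 at day 8, and 42.6 FPKM in Mbd3f/- iPSC, against 8.03 and 10.5. Grin1, a subunit of the NMDA receptor, differed by 1.39 in Gatad2a-/-, with 13.5 FPKM in iPSC against 4.73 and 4.299. In Mbd3f/- it differed by -2.98, with 2.87 FPKM in iPSC against 29.4 and 29.9. The metallothionein gene Mt1 differed by -1.32 in Gatad2a-/-, with 265 FPKM in iPSC against 772 and 568, and by 1.55 in Mbd3f/-, with 573 FPKM in iPSC against 194 and 196. Anxa1, annexin A1, differed by -1.20 and 1.63, with 7.55 FPKM in Gatad2a-/- iPSC against 19.04 and 18.2, and 15.1 FPKM in Mbd3f/- iPSC against 3.51 and 5.04. Bhmt2, a methyltransferase of homocysteine, differed by -1.22 and 1.71, with 2.08 FPKM in Gatad2a-/- iPSC against 7.27 and 5.21, and 5.89 FPKM in Mbd3f/- iPSC against 0.841 and 1.41; it missed the fold in Gatad2a-/- under median-of-ratios scaling and quantile normalization.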

How the results depend on the processing

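The counts of genes past the fold depended on the pseudocount, the filter and the fold more than on scaling. Of 393 higher and 916 lower genes, upper quartile scaling gave 388 and 918, median-of-ratios scaling 410 and 888, and quantile normalization 451 and 767. A pseudocount of 5 gave 169 higher and 384 lower, and one of 0.1 gave 537 and 1353. A fold of 2 log2 units left 35 and 258, FPKM of at least 5 in 2 libraries left 208 and 599, and no filter gave 626 and 916. Protein-coding genes alone, an alternative chosen after seeing the data, gave 262 and 499. Leaving out day 7 or day 8 asks for distance from 1 day only and gave 882 to 1137 higher and 1342 to 1494 lower genes, and the share also higher in Mbd3f/- was then 20.4% to 32.5%, against 27.8% with both days, and that also lower 28.8% to 35.3%, against 33.5%. The share of all genes past the fold in Mbd3f/- was then 3.12% to 5.11% higher, against 2.48%, and 3.86% to 5.6% lower, against 3.3%. Of 117 named genes past the fold, 1 missed it under upper quartile scaling (Vim), 2 under median-of-ratios scaling, 6 under quantile normalization and 36 with the pseudocount of 5, and 0 changed direction. No paired analysis was possible because each stage is 1 library and the labels carry no replicate numbers. Genes with few reads, above all in day 7, are the least certain, and counting error could not be given.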

Other observations

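Clusters of zinc-finger genes were higher in iPSC in runs of neighbours. A run is at least 3 successive protein-coding genes kept that are past the fold the same way. On chromosome 4 of GRCm38, between 145670685 and 146198755, Gm13242, Gm13235, Gm13051 and Zfp600 formed 1 run, and Gm21411, Gm13150 and Rex2 formed another between 146892406 and 147060794. Zfp600 had 163 FPKM in iPSC, against 15.5 at day 7 and 43.6 at day 8, with 1.02 FPKM in MEF. Rex2 had 112 FPKM in iPSC against 8.14 and 28.4, and Gm13235 had 479.7 FPKM against 9.07 and 29.5. On chromosome 13, between 65512678 and 66441118, Gm10139, Gm10324, Gm10772 and 2410141K09Rik were higher, and Gm10139 had 306 FPKM in iPSC against 11.96 and 87.96. In these genes day 8 was above day 7 and iPSC above day 8. Zfp600 had 11.5 FPKM in WT-2 iPSC, and 41.6 FPKM in Mbd3f/- iPSC against 4.79 and 17.3 on its days. Genes of such clusters are near copies of each other, so how reads were split between them is uncertain, and the part of this in the levels was not tested.

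Other runs were lower in iPSC. Phlda3, Lad1 and Pkp1 on chromosome 1, Cyp2b13, Cyp2b23 and Cyp2b19 on chromosome 7, and Sbsn, Dmkn and Krtdap on the same chromosome were such runs. Lad1, a protein of the epithelial basement membrane, had 2.69 FPKM in iPSC against 15.2 and 11.9. On chromosome X, Gpc4, Gpc3 and Ccdc160 were higher, and Gpc3, a glypican, had 20.2 FPKM in iPSC, against 2.21 at day 7, 5.37 at day 8 and 153 in MEF. Over whole chromosomes the median difference of protein-coding genes kept ran between -0.143 (chromosome 3) and 0.079 (chromosome 11), with -0.104 for X.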
